A study of Mus musculus with 7 samples.

Results

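The genes described here are 36 genes of the endoplasmic reticulum (ER) that fold secreted and membrane proteins, degrade those that fail to fold, or signal that failed folding to the nucleus. They were chosen by name for these roles, and all 36 were among the 12771 genes of the count table. Transcript counts came from cancer-associated fibroblasts (CAFs), the fibroblasts that surround tumor cells, sorted out of pancreatic tumors of C57BL/6 mice. The tumors had been grown in the pancreas of male mice, 8 weeks old at injection, from the mouse pancreatic cancer line KPC and were taken 2 to 3 weeks later. KPC cells of the shBrca2 group carried a short hairpin RNA against Brca2, a gene of homologous recombination, and those of the shControl group a non-targeting hairpin. Both lines were made with lentivirus and puromycin selection, and the hairpin sat in the cancer cells and not in the mice or their fibroblasts. The control group held 3 libraries, shControl 1, 2 and 4, and the other group 4, shBrca2 1 to 4, which the study describes as separate mice. The comparison asked how the ER machinery of the fibroblasts differed when Brca2 was silenced in the tumor cells around them, and Brca2 counts in the fibroblasts do not measure that silencing.

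The ER is where collagen and other secreted proteins enter the secretory pathway, and fibroblasts that build matrix rely on it heavily. When unfolded proteins accumulate, the chaperone BiP (encoded by Hspa5) leaves the sensors IRE1 (Ern1), PERK (Eif2ak3) and ATF6, and each sensor starts a branch of the unfolded protein response. ATF6 is cleaved to a transcription factor, IRE1 splices the Xbp1 transcript into one that encodes an active factor, and PERK phosphorylates eIF2α, which slows translation in general while favoring that of ATF4. ATF6 and XBP1 raise chaperones and degradation factors, and ATF4 raises amino acid synthesis genes, Ddit3 and its own brake, Ppp1r15a.

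The link between the chaperone genes and ATF6 is written in their promoters, in the ER stress response element (ERSE), which reads CCAAT and, after 9 free bases, CCACG, and in the shorter ERSE-II, which reads ATTGG and, after 1 free base, CCACG. The RefSeq promoters (GRCm38.p6, 250 bases before to 50 bases after the annotated start) held 32 of the 36 genes, with Hyou1, Manf, Atf6 and Derl1 missing. On either strand, ERSE was found in 9 of these 32 promoters (28.1%), against 37 of 27025 promoters in all (0.137%). ERSE-II was found in 2 of the 32 (6.25%), against 12 in all (0.0444%). The sites below are shown because the element recurs among the chaperone and degradation genes, although most of the 36 genes lack it. Each is written 5′ to 3′ along the strand of its gene, and capitals mark both parts of the element, which read CGTGG and ATTGG where an ERSE lies on the other strand.
Hspa5 (chr2:34772005-34772063, plus strand): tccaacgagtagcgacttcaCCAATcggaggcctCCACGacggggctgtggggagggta
Hsp90b1, site farther from the start (chr10:86705618-86705676, minus strand): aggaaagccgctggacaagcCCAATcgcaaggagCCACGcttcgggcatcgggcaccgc
Hsp90b1, site nearer the start (chr10:86705513-86705571, minus strand): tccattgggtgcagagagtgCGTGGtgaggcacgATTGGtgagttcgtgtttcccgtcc
Dnajc3 (chr14:118937807-118937865, plus strand): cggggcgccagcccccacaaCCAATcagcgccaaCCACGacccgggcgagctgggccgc
Pdia6 (chr12:17266471-17266529, plus strand): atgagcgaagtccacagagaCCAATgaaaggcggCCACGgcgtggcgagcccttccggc
Creld2 (chr15:88819500-88819558, plus strand): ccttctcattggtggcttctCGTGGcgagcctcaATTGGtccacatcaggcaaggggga
Calr (chr8:84847055-84847113, minus strand): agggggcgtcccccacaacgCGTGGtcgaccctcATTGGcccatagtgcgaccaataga
Syvn1 (chr19:6046512-6046570, plus strand): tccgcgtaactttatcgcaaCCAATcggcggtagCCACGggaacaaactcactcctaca
Herpud1, ERSE-II (chr8:94386357-94386407, plus strand): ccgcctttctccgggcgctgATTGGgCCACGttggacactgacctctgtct

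Canx and Derl3 held the other ERSE matches, and Dnajb11 held an ERSE-II just after its annotated start. The sites lay at different distances, from position -212 for the first base of the farther Hsp90b1 site to -44 for Syvn1. The core that XBP1 binds in the unfolded protein response element, TGACGTGG, was in 0 of the 32 promoters and in 0.714% of all. One strict form of the element of ATF4, TGATG and, after 1 free base, AAT, was also in 0 of the 32, and in 1.08% of all. Looser forms, and sites outside this window, were not searched, so these genes may still carry an ATF4 element. A match is a run of letters in this window and not a measured binding site.

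**Figure D1:**
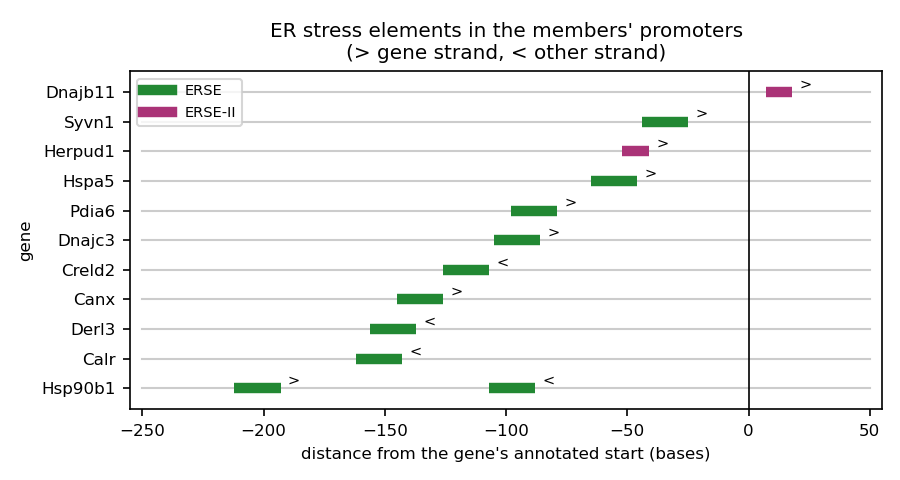
Positions of ERSE (green) and ERSE-II (purple) matches in the promoters of the 11 genes that held one, as distance in bases from the annotated start (vertical line); an arrowhead to the right marks a match on the gene's strand and one to the left a match on the other strand. Only Hsp90b1 held more than 1 match, and only the Dnajb11 match, from position 7 to 17, lay after the start.

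Libraries were made with a variant of MARS-seq, which reads the 3′ ends of poly(A) transcripts, and held 1898679 to 5990579 counts. Values are normalized counts, that is, counts divided by the library's DESeq2 size factor, and fold changes are shBrca2 over shControl. The sort took live CD45-/CD31-/EpCAM-/PDPN+ cells, and the fibroblast genes Col1a1, Col1a2, Col3a1 and Vim were abundant in every library, with 8269 or more normalized counts each, while Epcam and Ptprc (CD45) were not in the table. The 11 fibroblast markers summed to 141900 to 160400 normalized counts in shControl and 114600 to 136300 in shBrca2, and Dcn and Lum, which encode small matrix proteoglycans, were called lower. Most of that sum's difference came from Col3a1 (means of 54980 and 40400) and Dcn (20580 and 12090). Log2 fold changes of Col1a1, Col1a2, Pdgfra, Pdgfrb, Fap and Thy1 lay between -0.09 and 0.05, and Pdpn and Vim were at -0.25 and -0.18 without a call. In bulk RNA, fewer cells of a type and less RNA per cell cannot be told apart.

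The ER genes as a whole differed little between the groups. A call took an adjusted p under 0.1 in DESeq2, a log2 fold change beyond 0.5 in either direction and a mean normalized count over 5, a level that all 36 genes exceeded. DESeq2 called 1 of the 36 genes lower in shBrca2 CAFs (2.78%), Ppp1r15a, and called 0 higher. Of all genes tested, 9.04% were called, 3.77% as higher and 5.27% as lower. At an unadjusted p under 0.05, 5 of the 36 genes were lower and 0 were higher, where 17.7% of all genes passed in either direction. edgeR's quasi-likelihood test called 0 of the 36 genes in either direction, against 8.75% of all genes (3.63% higher and 5.13% lower).

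Small differences of the 36 genes leaned downward. The log2 fold change was below 0 for 26 of 36 genes (72.2%), against 49.2% of all genes, and its median was -0.12 (all genes, 0.01). The median absolute log2 fold change was 0.21, against 0.28 over all genes. For 26 of the 36 genes (72.2%) the 95% interval of the log2 fold change lay within 1 on both sides of 0, which held for 54.4% of all genes. For 8 of them (22.2%) it lay within 0.5, against 12.3% of all genes. A log2 fold change of 1 in either direction thus lay outside the interval for most of the ER genes, while one of 0.5 in at least 1 direction lay inside it for all but those 8.

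**Figure D2:**
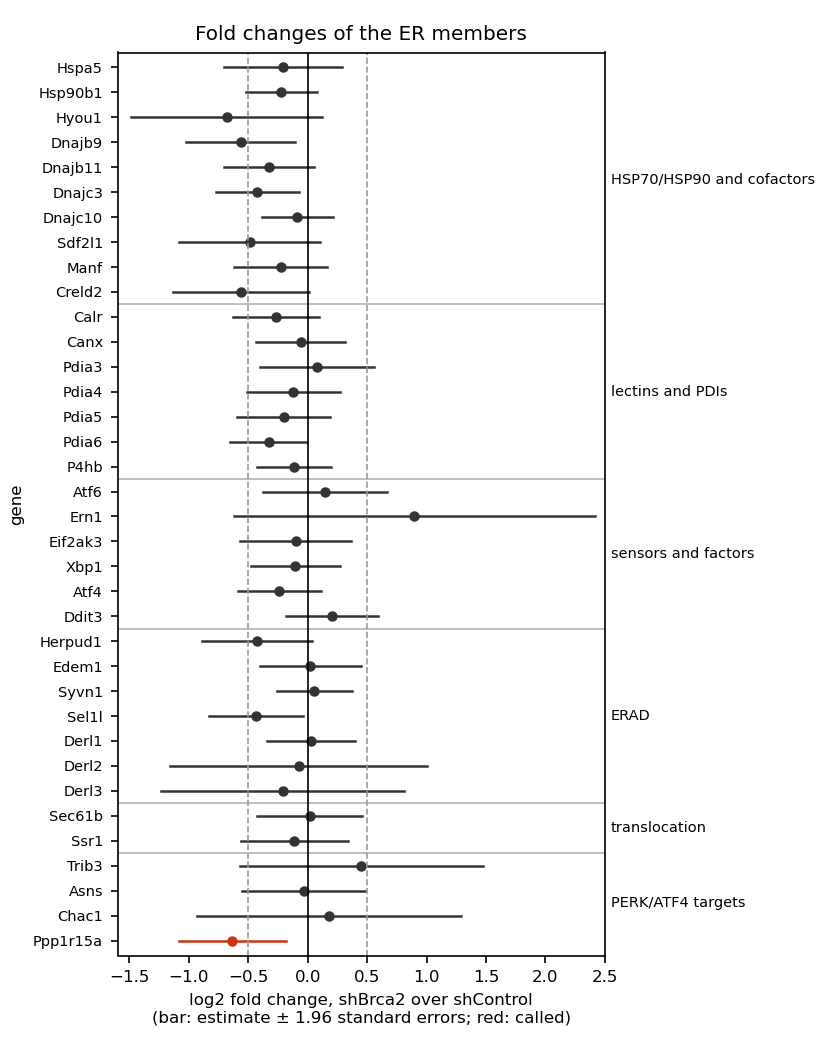
Log2 fold change (shBrca2 over shControl, x axis) of each of the 36 genes, grouped by role, with bars of 1.96 standard errors from the DESeq2 fit of 3 shControl and 4 shBrca2 libraries; dashed lines mark 0.5 on both sides of 0. All 10 genes of the uppermost group lie below 0, and Ppp1r15a, in red, is the 1 gene called.

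The sensors and their transcription factors stand first in the pathway, and DESeq2 and edgeR called 0 of these 6 genes, with 0 under an unadjusted p of 0.05. Ern1, which encodes IRE1, was near the limit of detection, at 0.854, 3.80 and 6.81 normalized counts in shControl 1, 2 and 4 and 4.30, 5.83, 12.1 and 7.11 in shBrca2 1 to 4. The groups overlapped, and the log2 fold change of 0.90 had an interval from -0.62 to 2.41, so the depth set only wide limits for this gene. Eif2ak3, which encodes PERK, was even across libraries, between 57.4 and 69.2 in shControl and between 52.5 and 66.3 in shBrca2. Its log2 fold change was -0.10, with an interval from -0.57 to 0.37. Atf6 had 86.3, 77.2 and 48.6 normalized counts in shControl and 79.2, 92.7, 72.5 and 66.1 in shBrca2. The groups overlapped, at a log2 fold change of 0.15 (interval -0.38 to 0.67).

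Xbp1, the factor downstream of IRE1, had 1260, 1084 and 1097 normalized counts in shControl and 962, 1410, 922 and 973 in shBrca2. Replicate 2 of shBrca2 was the highest of all libraries and the other shBrca2 libraries were the lowest, and the log2 fold change was -0.10 (interval -0.48 to 0.27, DESeq2 adjusted p = 0.87). Counts per gene do not separate spliced from unspliced Xbp1. Atf4, the factor downstream of PERK, had 2393, 2005 and 1980 in shControl and 1395, 1900, 2109 and 1805 in shBrca2, and shBrca2 3 lay among the shControl libraries. Its log2 fold change was -0.24 (interval -0.59 to 0.11, DESeq2 adjusted p = 0.54), and much of the control of ATF4 is on translation, which RNA counts do not show. Ddit3, which encodes CHOP, the factor tied to cell death under prolonged ER stress, had 229, 175 and 220 in shControl and 209, 222, 302 and 236 in shBrca2. The log2 fold change was 0.21 (interval -0.18 to 0.59). In the annotation, 82.4% of the exon bases of Ddit3 overlap exons of other genes on the opposite strand. Ccdc117 overlaps 22.0% of those of Xbp1, so the counts of both genes are uncertain where strand was not kept. These and later shares cover all annotated exon bases, while the libraries read 3′ ends, so they do not measure the share of counts affected.

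The lumenal HSP70 and HSP90 chaperones and their cofactors were the group with the clearest lean. All 10 genes had log2 fold changes below 0, from -0.68 to -0.09 with a median of -0.37, and DESeq2 and edgeR called 0 of them, with 2 of the 10 under an unadjusted p of 0.05. Hspa5, which encodes BiP, had 2921, 2328 and 1853 normalized counts in shControl and 2381, 2689, 1340 and 1791 in shBrca2. Its highest library was a control and its lowest shBrca2 3, but the groups overlapped, and the log2 fold change was -0.21 (interval -0.70 to 0.29, DESeq2 adjusted p = 0.77). Rabepk on the opposite strand overlaps 44.2% of the exon bases of Hspa5. Hsp90b1, which encodes the HSP90 of the ER, GRP94, had 2385, 2448 and 2349 in shControl and 2103, 2181, 2280 and 1656 in shBrca2. Every control lay above every shBrca2 library, by a narrow margin, at a log2 fold change of -0.22 (interval -0.52 to 0.08, DESeq2 adjusted p = 0.50).

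The cofactors of BiP gave the smallest p-values of the group. Dnajb9, which encodes the HSP40 cochaperone ERdj4 and is a known target of XBP1 (chromosome 12, 44205897 to 44210068 on mm10), had 483, 321 and 327 normalized counts in shControl and 221, 343, 218 and 235 in shBrca2. A single shBrca2 library, replicate 2, lay at the level of the lower controls, and the other 3 lay below all controls. The log2 fold change was -0.57 ± 0.24 (SE; DESeq2 adjusted p = 0.14), and the gene was called without shBrca2 2 (-0.75, DESeq2 adjusted p = 0.018) and without shControl 2 (-0.67, 0.081). Dnajc3, which encodes the lumenal cochaperone p58IPK, had 256, 281 and 266 in shControl and 231, 208, 164 and 189 in shBrca2. The groups did not overlap, at a log2 fold change of -0.42 ± 0.18 (SE; DESeq2 adjusted p = 0.14). This gene did not reach a call in any alternative, and its log2 fold change ran from -0.51 to -0.35 when a library was left out.

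Creld2, which encodes a secreted ER stress protein with disulfide isomerase activity, rested on 1 library. It had 217, 528 and 277 normalized counts in shControl and 275, 241, 185 and 216 in shBrca2. Apart from shControl 2, the controls lay within or next to the range of shBrca2. The log2 fold change was -0.56 ± 0.29 (SE; DESeq2 adjusted p = 0.29). Without shControl 2 it was -0.10 (0.90), and without shControl 1 it was -0.80 and the gene was called (DESeq2 adjusted p = 0.071).

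Hyou1, the nucleotide exchange factor of BiP, and Sdf2l1, a partner of the ER HSP40 proteins, had the same shape. Hyou1 had 21.4, 59.5 and 27.2 normalized counts in shControl and 27.5, 21.0, 22.5 and 17.3 in shBrca2, and Sdf2l1 had 99.1, 209 and 124 in shControl and 121, 127, 77.7 and 78.3 in shBrca2. In both genes shControl 2 stood above all other libraries. Their log2 fold changes of -0.68 and -0.49 went to -0.14 and -0.12 without that library. Dnajb11, Manf and Dnajc10, the remaining cofactors, had log2 fold changes of -0.33, -0.23 and -0.09, and that of Manf was 0.01 without shControl 2.

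**Figure D3:**
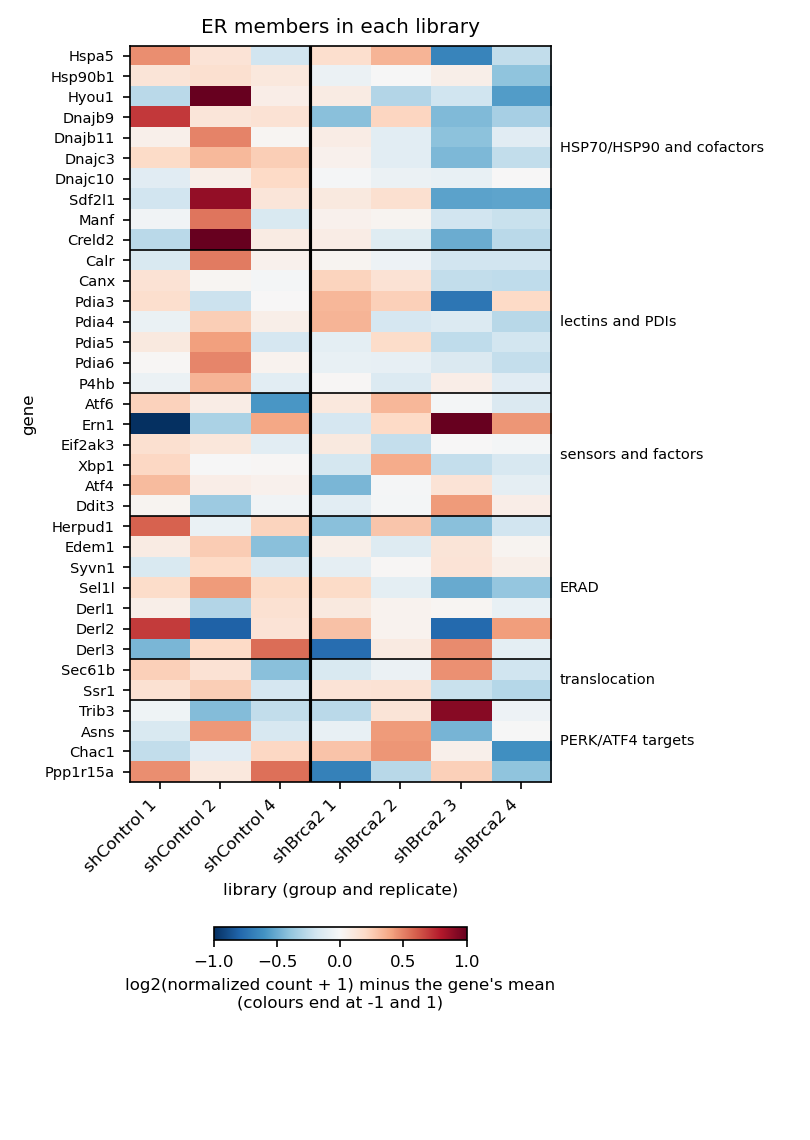
Deviation of each of the 36 genes (rows, grouped by role) from its own mean on the log2(normalized count + 1) scale in each of the 7 libraries (columns; shControl left of the black line, shBrca2 right of it). In the HSP70 and HSP90 group shControl 2 averages 0.49 above the genes' means, while shBrca2 3 and 4 average -0.34 and -0.29.

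The lectin chaperones and protein disulfide isomerases, which retain and oxidize glycoproteins during folding, leaned the same way but less. Log2 fold changes were below 0 for 6 of 7 genes, with a median of -0.12, and DESeq2 and edgeR called 0, with Pdia6 the 1 gene under an unadjusted p of 0.05. Pdia6 had 2457, 3430 and 2502 normalized counts in shControl and 2320, 2301, 2207 and 2073 in shBrca2. The groups did not overlap, and shControl 2 stood far above the rest. The log2 fold change was -0.33 ± 0.16 (SE; DESeq2 adjusted p = 0.26), and -0.16 without shControl 2. Calr, which encodes calreticulin, the soluble lectin chaperone, had 7389, 11763 and 8443 in shControl and 8340, 7901, 7166 and 7186 in shBrca2. Again only shControl 2 was far from the others, and the log2 fold change of -0.27 (interval -0.63 to 0.10) went to -0.05 without it. Canx, which encodes the membrane-bound calnexin, Pdia4, Pdia5 and P4hb, the last also a subunit of the collagen prolyl hydroxylase, had log2 fold changes of -0.06, -0.12, -0.20 and -0.11. Pdia3, the isomerase that works with the lectins, was the exception at 0.08 (interval -0.40 to 0.56). Other genes overlap 26.5% of the exon bases of Pdia3, 21.2% of those of P4hb and, in the group before, 42.8% of those of Manf.

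The lean of the folding genes depended most on shControl 2. Of the 17 genes of both folding groups, 11 were highest in shControl 2 and 15 were lowest in shBrca2 3 or shBrca2 4, while 16 had a log2 fold change below 0. The share of all genes that were lowest in these shBrca2 libraries is not given here. Library shBrca2 3 had the fewest counts (1898679) and was the highest library for 17.7% of all genes with a mean normalized count over 5. Over all 36 genes shControl 2 was the highest library for 16, where it was the highest for 16.7% of all genes with a mean normalized count over 5. The 36 genes took 1.18% of the normalized counts of shControl 2 and between 0.96% and 1.07% of those of the other libraries. Without shControl 2 the median of the HSP70 and HSP90 group went from -0.37 to -0.15, with 9 of 10 genes below 0, and that of the lectins and isomerases from -0.12 to -0.05, with 6 of 7 below 0. Without shBrca2 3 the median of the HSP70 and HSP90 group was -0.31 and without shBrca2 4 it was -0.35, with 10 of 10 genes below 0 both times. The same library also differed from the other controls in fibroblast genes, with 11244 normalized counts of Dcn against 24418 and 26065, and 16333 of Col1a1 against 11144 and 8269. The part of this in the chaperone values was not tested.

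ER-associated degradation (ERAD), which passes misfolded proteins back to the cytosol for the proteasome, was mixed. Log2 fold changes were below 0 for 4 of 7 genes with a median of -0.08, and DESeq2 and edgeR called 0, with Sel1l the 1 gene under an unadjusted p of 0.05. Sel1l, the adaptor of the HRD1 ubiquitin ligase, had 481, 568 and 483 normalized counts in shControl and 484, 397, 299 and 324 in shBrca2. Replicate 1 of shBrca2 was at the level of the controls and the other 3 were below them, at a log2 fold change of -0.44 ± 0.20 (SE; DESeq2 adjusted p = 0.21). Herpud1, a membrane component of the same complex and a common marker of ER stress, had 501, 318 and 388 in shControl and 249, 403, 249 and 292 in shBrca2. The groups overlapped, at a log2 fold change of -0.43 ± 0.24 (SE; DESeq2 adjusted p = 0.34), and the gene was called without shBrca2 2 (-0.62, 0.077). Syvn1, which encodes HRD1 itself, was at 0.06 (interval -0.26 to 0.37), and Edem1, which directs mannose-trimmed glycoproteins to degradation, at 0.02 (interval -0.40 to 0.45). Derl1, Derl2 and Derl3, the derlins of the ER membrane, had log2 fold changes of 0.03, -0.08 and -0.21, and in Derl2 and Derl3 the low counts, at most 16.5, left intervals wider than 2 log2 units.

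Sec61b, a subunit of the channel through which proteins enter the ER, and Ssr1, of the translocon-associated complex, did not pass the test. Sec61b ran from 686 to 1086 normalized counts in shControl and from 799 to 1261 in shBrca2, and its log2 fold change was 0.02 (interval -0.43 to 0.46). Ssr1 was at -0.11 (interval -0.56 to 0.34).

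The targets of the PERK and ATF4 branch held the 1 call. Ppp1r15a encodes GADD34, the regulatory subunit that directs protein phosphatase 1 to eIF2α and so ends the translational block that PERK imposes (chromosome 7, 45522917 to 45526268 on mm10, minus strand). It had 1342, 1049 and 1428 normalized counts in shControl and 607, 800, 1147 and 734 in shBrca2. All shBrca2 libraries but replicate 3 lay below all controls, and replicate 3 lay above shControl 2, so the groups overlapped. The means were 1273 ± 199 (SD, n = 3) and 822 ± 231 (SD, n = 4). The log2 fold change was -0.64 ± 0.23 (SE), which is a ratio of 0.644 (DESeq2 adjusted p = 0.065). The call was close to the threshold: edgeR's adjusted p was 0.10, and the gene was not called without shControl 1 (log2 fold change -0.60, DESeq2 adjusted p = 0.22), shControl 4 (-0.55, 0.27), shBrca2 1 (-0.51, 0.29), shBrca2 2 (-0.63, 0.11) or shBrca2 4 (-0.58, 0.23). Without shBrca2 3 it was -0.84 (DESeq2 adjusted p = 0.0013), and without shControl 2 it was -0.76 (0.021).

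The other ATF4 targets did not pass the test and were not all measured well. Asns, which encodes asparagine synthetase, ran from 100 to 152 normalized counts in shControl and from 81.2 to 152 in shBrca2, at a log2 fold change of -0.04 (interval -0.55 to 0.48). Trib3, a pseudokinase that restrains ATF4 output, and Chac1, which degrades glutathione, had at most 20.7 and 11.7 normalized counts in any library. Their log2 fold changes of 0.45 and 0.18 had intervals from -0.57 to 1.48 and from -0.93 to 1.29, so a small or moderate difference was not detectable at this depth. Ppp1r15a is also among the genes that cells induce when a tissue is taken apart. Of 20 such immediate early and dissociation genes, DESeq2 called 15%, against 9.04% of all genes. Gadd45b (log2 fold change -0.68) and Socs3 (-0.60) were lower and Rhob (0.56) higher. The median of the list was -0.06, with 11 of 20 below 0, and uncalled genes ran from -0.51 for Egr1 to 0.91 for Hspa1b. Summed normalized counts of the 20 genes were 75310 to 98570 in shControl and 69130 to 91620 in shBrca2, and their part in the Ppp1r15a value was not tested.

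**Figure D4:**
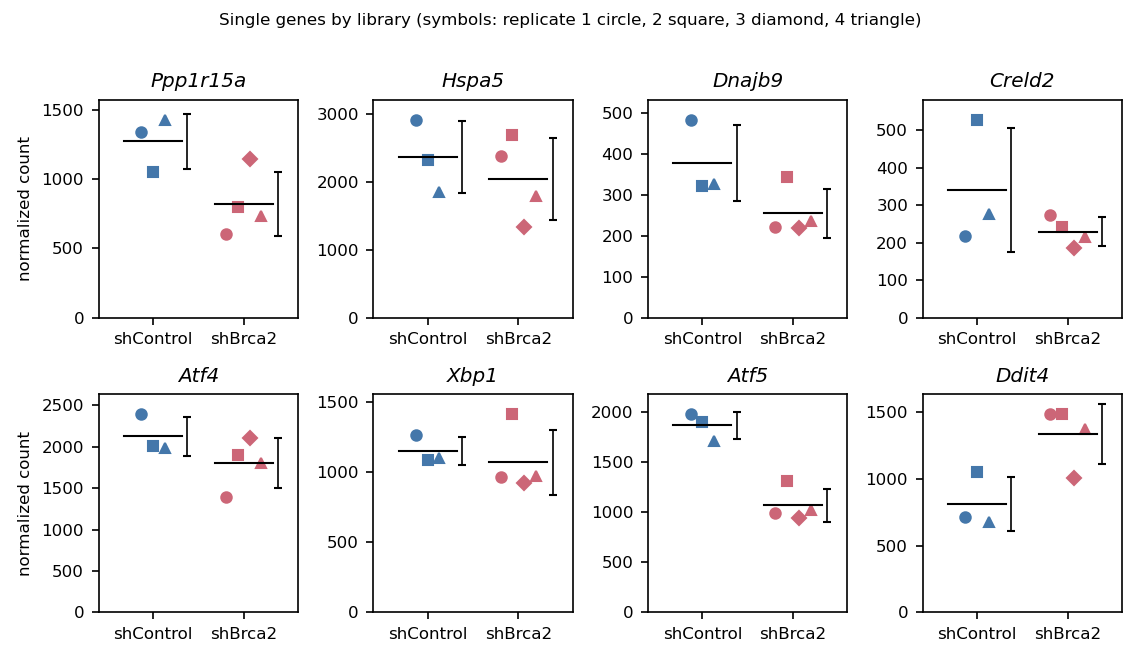
Normalized counts per library (y axis, from 0) of 6 of the 36 genes and of Atf5 and Ddit4 from the wider stress response; lines are group means and bars 1 SD, for 3 shControl (blue) and 4 shBrca2 (red) libraries. Atf5 separates the groups, at 1714 or more against 1313 or less, while Creld2 shows 1 control far above all other libraries.

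The promoter element did not mark a set with a call. The 9 genes with an ERSE had a median log2 fold change of -0.22, with 8 of 9 below 0 and 0 called by DESeq2 or edgeR (2 under an unadjusted p of 0.05). The 23 genes with a promoter and no ERSE had a median of -0.10, with 16 below 0 and 1 called. Groups did not overlap, with shBrca2 lower, for 3 of the 36 genes, a share close to the 9.29% of all genes. These were Hsp90b1, by a narrow margin, Dnajc3 and Pdia6. All carry an ERSE, as do Hspa5, Creld2, Calr, Canx, Derl3 and Syvn1, whose groups overlapped. A link between the element and the separation was not tested. For 0 of the 36 did the groups separate with shBrca2 higher, against 7.78% of all genes. Syvn1, which carries a perfect element too, was at 0.06.

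**Figure D5:**
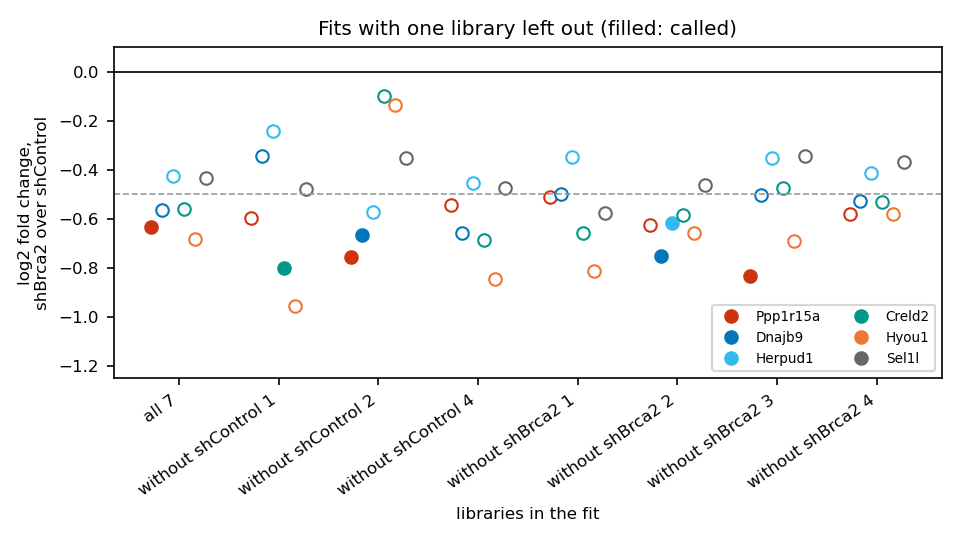
Log2 fold changes (shBrca2 over shControl, y axis) of 6 genes with all 7 libraries and with each library left out in turn; filled points passed the call and the dashed line marks -0.5. Leaving out shControl 2 moves Creld2 and Hyou1 to -0.10 and -0.14, and Ppp1r15a is filled in 3 of the 8 fits shown.

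The wider ER and stress machinery held few calls too. Of 195 further genes in 6 lists, 183 were in the table, and DESeq2 called 4 (2.19%), against 9.04% of all genes. The median log2 fold changes were 0.01 for 34 genes of translocation and glycan transfer, -0.09 for 26 other ERAD genes, -0.10 for 29 other folding genes, -0.03 for 34 genes of ER to Golgi transport, 0.00 for 38 genes of the integrated stress response and 0.01 for 22 regulators of the sensors. edgeR called the same 4 genes.

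The 4 calls went in both directions. Atf5, a factor that like ATF4 is translated when eIF2α is phosphorylated, had 1977, 1903 and 1714 normalized counts in shControl and 990, 1313, 938 and 1026 in shBrca2. The groups were well apart, the log2 fold change was -0.80 ± 0.17 (SE; DESeq2 adjusted p = 8.6e-05), and it was called in all 13 alternatives. Ddit4, which encodes REDD1, an mTORC1 inhibitor induced by ATF4 and also by hypoxia, had 716, 1050 and 676 in shControl and 1487, 1487, 1010 and 1374 in shBrca2. Replicate 3 of shBrca2 lay just below shControl 2, and the log2 fold change was 0.72 ± 0.21 (SE; DESeq2 adjusted p = 0.018). Ddit4 was not called without shControl 1 (0.64, DESeq2 adjusted p = 0.15), shControl 4 (0.60, 0.16) or shBrca2 1 (0.67, 0.11).

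Cnpy3, a chaperone of Toll-like receptors, had 454, 545 and 505 normalized counts in shControl and 385, 354, 252 and 363 in shBrca2. Its groups did not overlap, at a log2 fold change of -0.56 ± 0.19 (SE; DESeq2 adjusted p = 0.038), and it was not called without shControl 2 (-0.50), shControl 4 (-0.56), shBrca2 3 (-0.45) or shBrca2 4 (-0.59). Sec61a2, the less used form of the translocation channel, had 69.2, 64.5 and 49.6 in shControl and 108, 107, 65.6 and 112 in shBrca2. Its groups overlapped through shBrca2 3, the log2 fold change was 0.70 ± 0.26 (SE; DESeq2 adjusted p = 0.079), and 31.7% of its exon bases overlap other genes on the opposite strand. Of the fits that left out a library, only that without shBrca2 3 called it (0.83, DESeq2 adjusted p = 0.022), and in the other 6 it ran from 0.57 to 0.80.

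Plasma cells and pancreatic acinar cells are rich in ER chaperones, and most of their listed transcripts were lower in shBrca2. Of 17 plasma and B cell genes 6 were in the table, and Jchain, the joining chain of antibodies, had 30.8, 11.4 and 57.4 normalized counts in shControl and 6.02, 4.08, 0 and 1.02 in shBrca2. Jchain and Mzb1 were called lower and Sdc1, which fibroblasts and epithelium also express, higher. Sdc1 made up most of the sum of the 6 genes, which was 651 to 1136 normalized counts in shControl and 1057 to 1812 in shBrca2. The other 5 had log2 fold changes below 0, at 57.4 normalized counts or fewer in every library. Of 27 acinar genes 16 were in the table, 6 were called lower and 1, Cela1, higher, and their sum was 210 to 398 normalized counts in shControl and 119 to 194 in shBrca2. In the other direction, Krt7, Krt8, Krt18 and Krt19 of 9 epithelial genes and Csf1r, C1qa and Cd14 of 10 macrophage genes were called higher, and the macrophage genes summed to 342 to 408 in shControl and 583 to 627 in shBrca2. Most of that sum's difference came from Csf1r (means of 113 and 248) and Cd14 (74.1 and 171). Of the uncalled macrophage genes, Cd68, Lyz2 and Fcer1g had log2 fold changes of -0.32, -0.26 and -0.11. C1qb, C1qc, Tyrobp and Mrc1 were at 0.688, 0.565, 0.521 and 0.875. The median of the 10 macrophage genes was 0.627, with 3 below 0. The epithelial sums overlapped, at 1058 to 3665 in shControl and 2295 to 3085 in shBrca2. Of the uncalled epithelial genes, Lcn2 was at -0.87 and Muc1 at 0.02. Cdh1, Tspan8 and Cldn7 were at 1.588, 1.388 and 0.58, with 17.3 normalized counts or fewer in every library. The median of the 9 epithelial genes was 1.162, with 1 below 0, and mesothelial cells also express Krt19. The part of these cells in the ER values was not tested.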

How the data were processed

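CAFs from tumors of KPC-shControl (n = 3) and KPC-shBrca2 (n = 4) cells were compared. The authors deposited raw counts per gene symbol, not normalized, with 1 column per library. The submitters' processing notes name bcl2fastq, cutadapt, STAR 2.4.2a, HTSeq, DESeq2 and mm10. The annotation, strand setting and collapsing of molecular barcodes are not given in the sources used here, so counts may include PCR copies. Groups came from the hairpin recorded for each sample.

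DESeq2 1.42.0 (R 4.3.3) was run on all 12771 genes and 7 libraries with its likelihood ratio test for the group, median-of-ratios size factors and Benjamini-Hochberg adjustment, following the study's methods (adjusted p under 0.1, absolute log2 fold change over 0.5, mean normalized count over 5). 3 genes received no p. Intervals are 1.96 standard errors to each side. Alternatives were edgeR 4.0.16 (quasi-likelihood, TMM factors), the Wald test, TMM factors in DESeq2, only genes with 10 or more counts in 3 or more libraries, no independent filtering, a replicate block and each library left out. No pair of libraries was a duplicate (lowest mean chi-square per gene 3.16).

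The genes and lists were chosen with earlier results of these data known, and the immediate early list after its values were seen. No test over a list was run. Described in full were the called gene, the 6 uncalled genes with the smallest p, the sensors and transcription factors, and called genes of the wider lists. Other genes were added after their values were seen. Gene positions and promoters are from RefSeq (GRCm38.p6, the assembly of mm10), and overlapping exons from GENCODE vM39 by symbol.

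In simulated counts for 12771 genes in 3 against 4 libraries, the likelihood ratio test recovered 66.1% of 109 genes that were shifted by 1 log2 unit and 97.8% of 91 shifted by 2, and 11% of its calls were false. Genes of low mean count were not shifted, and no shift under 1 log2 unit was simulated. These rates therefore do not cover such genes or the smaller differences described above.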

Additional observations from a re-analysis of the deposited data

Results flagged for a closer look

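In 3 of the 36 genes, 1 of the 4 shBrca2 libraries lay far from the others by Dixon's gap test, which flags about 5% of such groups by chance. Dnajb9 had 343 normalized counts in shBrca2 2, against 218 to 235 in the others. Xbp1 had 1410 in the same library, against 922 to 973. Pdia3 had 1064 in shBrca2 3, against 2023 to 2218. The test was not applied to the group of 3 shControl libraries, so the high values of Creld2 and Hyou1 in shControl 2 were not tested.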

How the results depend on the processing

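Over 13 alternatives, 23 of the 36 genes kept the sign of their log2 fold change, 20 of them below 0 and 3 above, and 13 changed it at least once. Ern1, among the 3 above 0, was left out by the filter on low counts and so had a value in 12 of the 13. The number of the 36 genes called lower was 1 as reported, 0 by edgeR and from 0 to 2 with a library left out, and 0 were called higher in every alternative. Ppp1r15a stayed called in 7 of the 13. All genes called numbered 1154 as reported, 491 with a replicate block, and 615 to 1305 with a library left out. Genes of the wider lists called numbered 4 as reported and from 1 to 6 with a library left out. Libraries that share a replicate number did not deviate together (correlations of -0.07, -0.10 and -0.09 for numbers 1, 2 and 4), so the replicate block stands only as a check. In that block the log2 fold change turned to 0.24 for Derl2, -0.13 for Sec61b and 0.078 for Asns, that of Ppp1r15a was -0.83, and Cnpy3 and Sec61a2 were not called. With a library left out, log2 fold changes that turned ran from -0.36 to 0.011 for Manf, -0.15 to 0.015 for Canx, -0.021 to 0.27 for Pdia3, -0.20 to 0.04 for P4hb, -0.067 to 0.32 for Atf6, -0.15 to 0.16 for Edem1, -0.008 to 0.18 for Syvn1, -0.091 to 0.12 for Derl1, -0.38 to 0.36 for Derl2, -0.48 to 0.082 for Derl3, -0.16 to 0.15 for Sec61b, -0.22 to 0.19 for Asns and -0.008 to 0.37 for Chac1. The cause was not tested. Depth limits Ern1, Derl2, Derl3, Trib3 and Chac1, whose normalized counts stayed under 21 in every library.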
